A study of Mus musculus with 4 samples.

Results

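Tuft cells are rare chemosensory cells of epithelia that carry a tuft of microvilli and use the signalling chain of taste receptor cells. In that chain a receptor activates a G protein that holds α-gustducin and a γ subunit, phospholipase C then releases calcium from internal stores, and the calcium opens a cation channel of the plasma membrane. Tuft cells are also known for the transcription factor POU2F3, for a bundled actin cytoskeleton, and for making eicosanoids and acetylcholine. The 10 genes described here are *Gnat3*, *Gng13*, *Plcb2* and *Trpm5* of this chain, the transcription factor gene *Pou2f3*, *Avil* and *Dclk1*, which encode an actin-bundling protein and a microtubule-associated kinase, the eicosanoid enzyme genes *Ptgs1* and *Alox5*, and *Chat*, which encodes the enzyme of acetylcholine synthesis. They were taken by gene name from 29924 gene names on the array, where 14 of 39429 probes belong to them. The list holds known tuft cell genes, and some of them were chosen by their higher level in *Pparg-cKO* ureters in these same files. The differences between the genotypes are therefore given as a description, without a test.

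The study deleted *Pparg*, the gene of a nuclear receptor, in the epithelium of the mouse ureter and asked which genes an agonist of SHH signalling would shift in the mutant. Ureters of newborn (P0) NMRI mice were kept as explants for 8 d, either with the solvent DMSO or with 2 µM purmorphamine, an agonist of SMO and so of the SHH pathway. *Pparg-cKO* ureters carried Pax2-cre/+ and Pparg (fl/fl), and control ureters are labelled Pparg (fl/?), with the second allele open. The Pax2-cre driver acts in the nephric duct and its derivatives, among them the ureteric epithelium, so mesenchymal, muscle, nerve and blood cells of the explants kept the gene, and Cre removes exons 2 and 3 of the floxed allele. Each of the 4 groups had 2 pools of ureters, one male (replicate 1) and one female (replicate 2), and on each of the 4 two-colour arrays the DMSO and purmorphamine pools of a genotype and sex were read together, which gave 8 channels. The number of animals in a pool is not given in the sources used here, and a pool is whole ureter tissue, in which fewer cells of a type and less RNA per cell cannot be told apart.

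An intensity below is the signal of the scanner software after each channel was brought to a 75th percentile of 1500, with values under 15 raised to 15, so that 15 is a floor and not a level. Between 65.6% and 69.9% of the probes were well above background per channel by the flag of that software. Markers of the labelled tissue were present in every channel, with a lowest intensity of 18861 for the urothelial plaque gene *Upk3a* and of 30250 for the smooth muscle gene *Acta2*. A probe for *Pparg* read 10612 and 14540 in control pools with DMSO, 13234 and 13604 in control pools with purmorphamine, 16971 and 17107 in *Pparg-cKO* pools with DMSO, and 22405 and 24715 in *Pparg-cKO* pools with purmorphamine. The sources used here do not place this probe inside or outside the deleted exons, so it checks no label. *Ptch1*, a target gene of SHH signalling, rose with purmorphamine in both genotypes, by 1.00 ± 0.12 (SE) in control and by 1.62 ± 0.12 in *Pparg-cKO* on the log2 scale (limma, adjusted p = 0.046 and 0.0144).

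The probes that carried the largest differences between the genotypes read the transcripts of *Gnat3*, *Gng13* and *Avil*, and they are shown because every intensity of these genes rests on them. They are 60 bases long, are given 5′ to 3′ as the scanner files list them, and have mm9 positions in those files. The *Gnat3* probe lies at chr5:17525427-17525486 on the plus strand, the *Gng13* probe at chr17:25855911-25855970 on the plus strand, and the *Avil* probe at chr10:126453541-126454065 on the plus strand, where its ends are 525 bases apart, more than its own length, so that it crosses spliced-out sequence.
Gnat3 probe: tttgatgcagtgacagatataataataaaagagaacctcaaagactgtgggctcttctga
Gng13 probe: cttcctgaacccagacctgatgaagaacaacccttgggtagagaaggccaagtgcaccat
Avil probe: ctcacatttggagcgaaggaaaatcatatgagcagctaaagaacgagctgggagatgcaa

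Of the 14 probes, 13 name a transcript that the RefSeq gene table (GRCm38.p6) holds. *Plcb2* had 2 probes and *Dclk1* 4, and each of the other 8 genes had 1. The single *Trpm5* probe is placed by the file at chr7:150257434-150257456 on the minus strand of mm9, which covers 23 of its 60 bases, a shortfall it shares with 651 of 39040 probes that have a position. Exons and introns are not marked in the files, so a place within the gene is not given for any probe.

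POU2F3 belongs to a family of factors that bind the octamer sequence, and promoters of *Gnat3*, *Gng13* and *Avil*, the genes with the largest differences, were read from RefSeq sequence for the 250 bases before the transcript start (GRCm38.p6). The windows are chr5:17962320-17962569 for *Gnat3*, chr17:25716922-25717171 for *Gng13* (the first of its start sites) and chr10:127000459-127000708 for *Avil*, all on the plus strand. Capitals mark the 7 letters ATGCAAA or their reverse complement.
Gnat3 promoter: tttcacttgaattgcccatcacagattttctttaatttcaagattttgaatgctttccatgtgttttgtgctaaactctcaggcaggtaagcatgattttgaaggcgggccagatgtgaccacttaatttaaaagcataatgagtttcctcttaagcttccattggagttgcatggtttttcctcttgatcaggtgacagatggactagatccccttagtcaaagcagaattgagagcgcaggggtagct
Gng13 promoter: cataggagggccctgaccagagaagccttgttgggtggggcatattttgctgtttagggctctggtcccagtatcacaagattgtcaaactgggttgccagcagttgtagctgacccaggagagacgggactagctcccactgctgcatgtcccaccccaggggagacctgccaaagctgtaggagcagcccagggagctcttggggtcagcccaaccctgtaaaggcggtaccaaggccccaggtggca
Avil promoter: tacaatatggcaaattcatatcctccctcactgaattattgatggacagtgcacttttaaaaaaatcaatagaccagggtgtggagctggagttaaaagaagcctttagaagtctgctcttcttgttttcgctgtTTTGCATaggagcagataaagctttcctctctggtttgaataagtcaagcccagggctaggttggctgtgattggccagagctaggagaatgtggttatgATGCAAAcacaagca

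The *Avil* window held 2 matches, 1 on each strand, and the other 2 windows held 0. Over the 32851 promoter windows of the table, which run on for a short stretch past the start, 4.63% held the 7 letters on either strand, and 1.74% held the 8-letter form ATGCAAAT, which contains them. Of 11 windows of 9 of the genes, 1 held the 7-letter form and 0 the 8-letter form. A match is only a run of letters, and no binding was measured here.

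With DMSO, 4 of the 10 genes met the fold rule of the methods as higher in *Pparg-cKO*, namely *Gnat3*, *Gng13*, *Trpm5* and *Avil*, and 0 as lower. The rule asks for an intensity above 100 in the brighter pool of both pairs and at least 1.5-fold the same way in male and in female pools, and the probe with the highest mean level stands for a gene. Over all 29924 gene names, 1.23% met it as higher in this comparison, which is also the comparison that brought some of the 10 genes into the list. With purmorphamine, *Gng13* alone met it, against 1.20% of all gene names. The median log2 difference of the 10 genes was 0.90 with DMSO and 0.53 with purmorphamine, beside 0.0042 and −0.0042 over the 20231 genes tested, those with signal above background in both pools of some group, and 9 and 8 of the 10 differences were above 0. All 10 genes were among the 20231. By probe, 13 of the 14 passed that filter, and a probe could pass through the mutant pools alone.

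**Figure D1:**
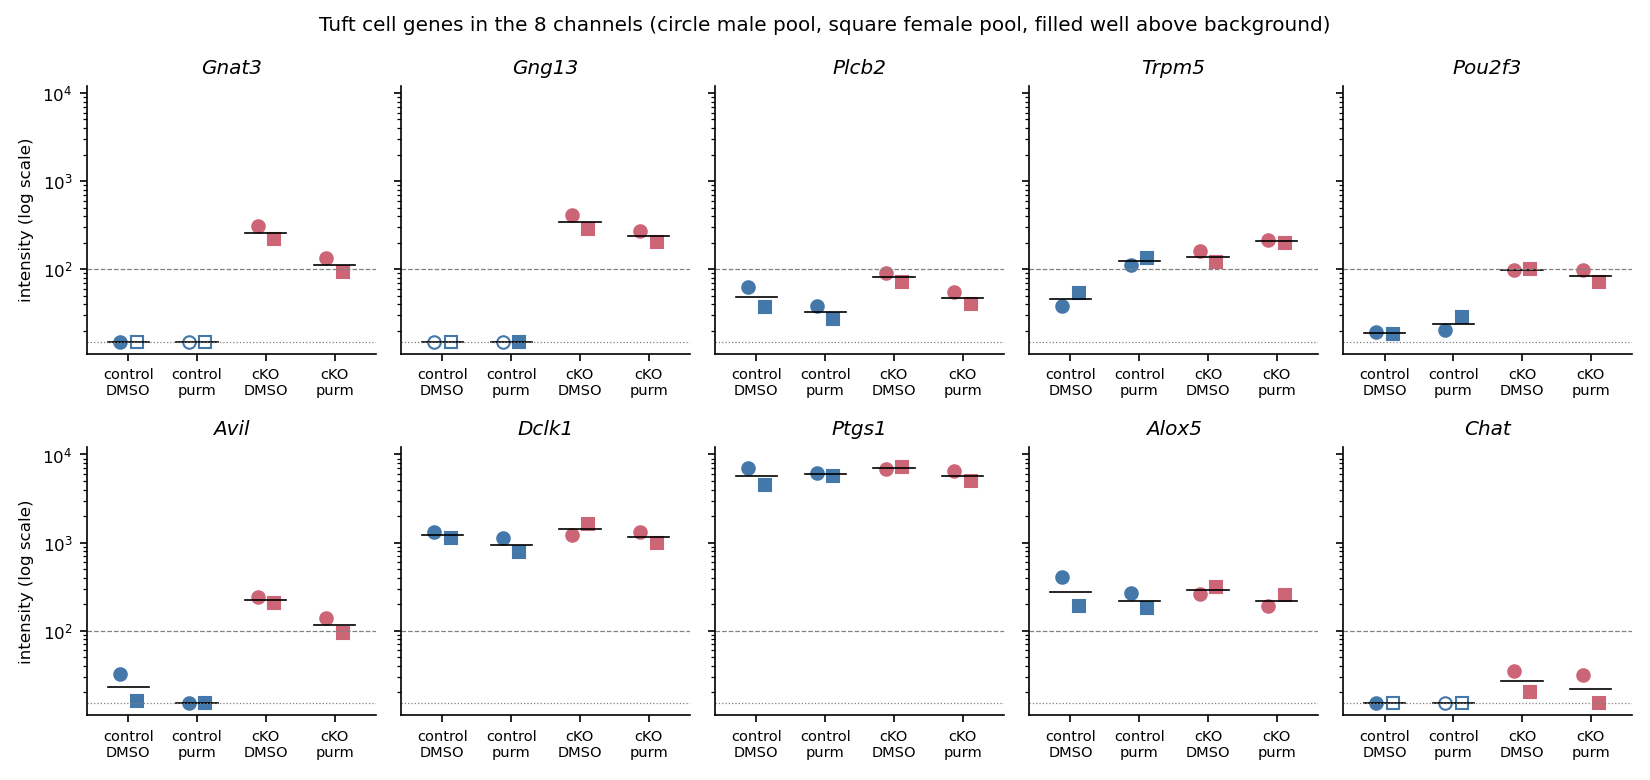
Intensity (log axis) of the brightest probe of each of the 10 genes in the 8 channels, by genotype and treatment ("purm" stands for purmorphamine, "cKO" for *Pparg-cKO*). Circles are male pools and squares female pools, filled where well above background, horizontal lines are geometric means of 2 pools, the dotted line is the floor of 15 and the dashed line the intensity of 100 of the fold rule. *Gnat3* and *Gng13* sit at the floor in all 4 control pools and between 92.0 and 413 in the 4 mutant pools.

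*Gnat3* encodes α-gustducin, the G protein subunit of taste transduction. Its intensity was at the floor of 15 in all 4 control pools, of which only the male DMSO pool was flagged as well above background. The *Pparg-cKO* pools read 306 (male) and 222 (female) with DMSO, and 134 and 92.0 with purmorphamine. The mutant and control pools did not overlap under either treatment, and the mutant pools with DMSO lay above those with purmorphamine. On the log2 scale of the limma fit the difference between genotypes was 3.15 ± 0.17 (SE, 2 pools a group) with DMSO. With purmorphamine, where 0 of 2 control pools were above background, the mutant level was at least 4.29-fold higher, taken against the lowest signal well above background in each control channel. The 92.0 of the female pool was below the intensity of 100, and for this alone *Gnat3* did not meet the fold rule with purmorphamine.

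*Gng13* encodes the γ subunit that pairs with α-gustducin in taste cells. The control pools read 15 throughout, and only the female purmorphamine pool was flagged as well above background. The mutant pools read 413 and 286 with DMSO and 273 and 206 with purmorphamine. All 4 mutant pools were above all 4 control pools, while the mutant pools of the 2 treatments did not overlap but lay close, at 286 against 273. With DMSO the mutant level was at least 11.2-fold higher than a control level that was not above background. With purmorphamine the log2 difference was 2.96 ± 0.18, with 1 of 2 control pools above background.

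*Plcb2*, the gene of the phospholipase C that acts after the G protein, differed less. Its brighter probe read 62.5 and 36.7 in control pools with DMSO and 38.2 and 27.3 with purmorphamine, and 91.5 and 70.9 in *Pparg-cKO* pools with DMSO and 55.0 and 40.3 with purmorphamine. The pools of the genotypes did not overlap within a treatment, yet none reached 100. The log2 difference between genotypes was 0.45 ± 0.19 with DMSO and 0.26 ± 0.19 with purmorphamine, and the male pair gave 0.32 and the female pair 0.57 with DMSO. The dimmer *Plcb2* probe was at 15 in all control pools and above the floor only in *Pparg-cKO* pools with DMSO, at 23.6 and 16.8.

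*Trpm5* encodes the cation channel that calcium opens at the end of the chain. It read 38.6 and 53.6 in control pools with DMSO, 112 and 135 in control pools with purmorphamine, 159 and 121 in *Pparg-cKO* pools with DMSO, and 215 and 199 in *Pparg-cKO* pools with purmorphamine. The order of the groups was thus unlike that of the other genes of the chain, with mutant pools with purmorphamine highest. Mutant DMSO pools and control purmorphamine pools overlapped, and both stood above control DMSO pools. The log2 difference between genotypes was 1.15 ± 0.14 with DMSO and 0.52 ± 0.14 with purmorphamine.

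*Pou2f3*, whose product is needed for tuft cells to form, read 19.1 and 18.5 in control pools with DMSO, 20.2 and 28.3 with purmorphamine, 98.4 and 99.4 in *Pparg-cKO* pools with DMSO, and 97.2 and 71.2 with purmorphamine. All 8 channels were well above background and the genotypes did not overlap. The folds were 5.14 in male and 5.37 in female pools with DMSO, and 4.80 and 2.52 with purmorphamine. With intensities of 98.4 and 99.4 the gene fell just short of the threshold of 100 and so did not meet the fold rule. The log2 difference was 1.49 ± 0.13 with DMSO and 1.07 ± 0.13 with purmorphamine.

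*Avil*, the gene of the actin-bundling protein advillin, read 32.2 and 15.95 in control pools with DMSO and 15 in both control pools with purmorphamine, against 240 and 205 in *Pparg-cKO* pools with DMSO and 140 and 94.6 with purmorphamine. All 8 channels were flagged as well above background, including those at the floor. The mutant pools with DMSO were highest, as for *Gnat3*, and the 2 mutant groups did not overlap. The log2 difference between genotypes was 2.35 ± 0.19 with DMSO and 1.96 ± 0.19 with purmorphamine.

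**Figure D2:**
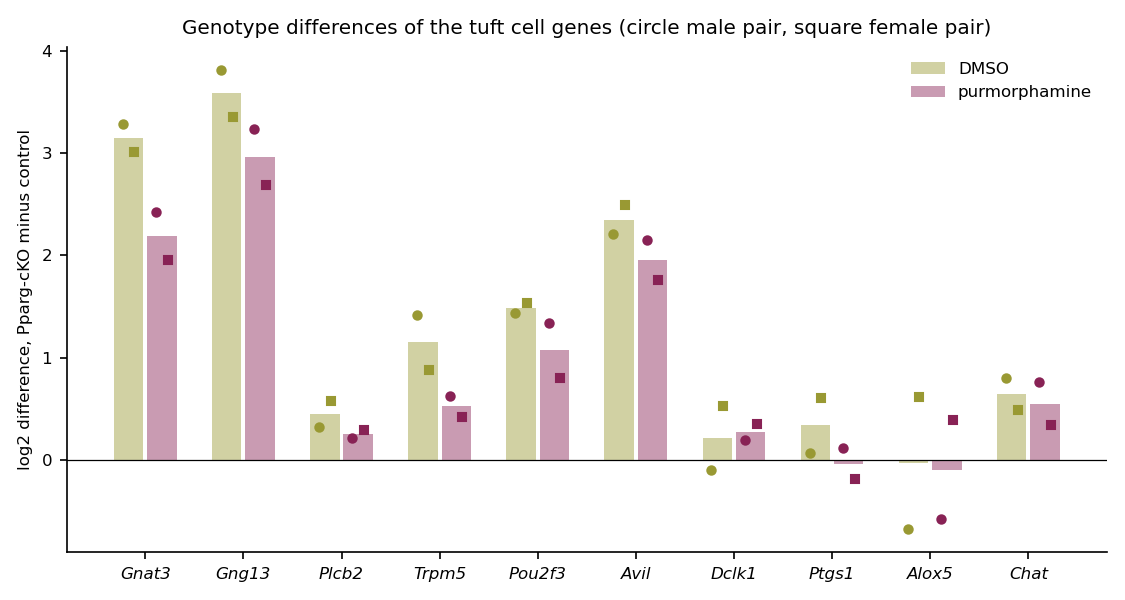
Difference between *Pparg-cKO* and control (log2 of normalised intensity) of the brightest probe of each gene, with DMSO and with purmorphamine. Bars start at 0 and are the fitted differences, circles the male and squares the female pair. *Gnat3*, *Gng13*, *Pou2f3* and *Avil* lie above 0.8 in every pair, and the 2 pairs of *Alox5* lie on opposite sides of 0 under both treatments.

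The 4 probes of *Dclk1*, which encodes a microtubule-associated kinase found in tuft cells and in neurons, disagreed. The brightest, at chr3:55273441-55273500 on the plus strand of mm9, read 1305 and 1121 in control pools with DMSO and 1222 and 1627 in *Pparg-cKO* pools with DMSO, so that the groups overlapped, with a log2 difference of 0.21 ± 0.23. A second probe, which the file assigns to the same transcript, at chr3:55266925-55266984, read 725 and 622 in control and 728 and 853 in *Pparg-cKO* pools with DMSO, groups that just failed to overlap, with a log2 difference of 0.25 ± 0.21. A_51_P270355, a probe of another transcript, at chr3:55340456-55340515, read 103 and 74.0 in control pools with DMSO against 167 and 139 in *Pparg-cKO* pools with DMSO, which did not overlap. Its folds of 1.63 and 1.88 met the fold rule, with a log2 difference of 0.60 ± 0.17 with DMSO and 0.41 ± 0.17 with purmorphamine. The fourth probe, A_55_P1970244, was not above background in any of the 8 channels.

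**Figure D3:**
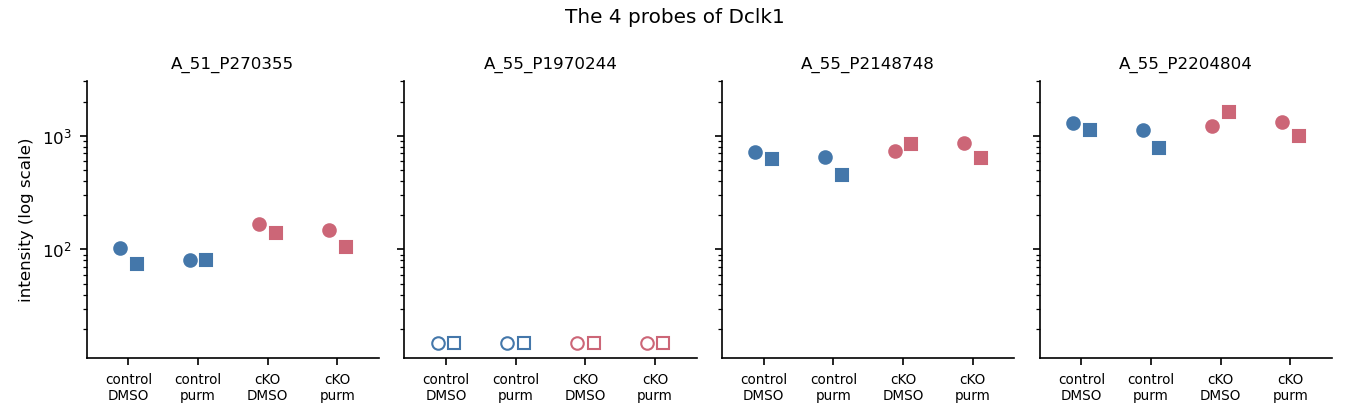
Intensity (log axis) of the 4 probes of *Dclk1*, named by their array identifiers, in the 8 channels, with circles for male and squares for female pools and open symbols where not well above background. A_51_P270355 separates mutant from control pools under both treatments, A_55_P2148748 only narrowly with DMSO (728 against 725) and not with purmorphamine, and A_55_P1970244 stays at the floor of 15.

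*Ptgs1* and *Alox5*, the genes of cyclooxygenase 1 and 5-lipoxygenase, and *Chat* met the fold rule under neither treatment. *Ptgs1* read 7005 and 4550 in control pools and 6922 and 7132 in *Pparg-cKO* pools with DMSO, groups that overlapped, with a log2 difference of 0.34 ± 0.20. With purmorphamine it read 6197 and 5723 in control and 6536 and 5045 in *Pparg-cKO* pools. *Alox5* read 407 and 189 in control and 262 and 315 in *Pparg-cKO* pools with DMSO, and 265 and 181 against 189 and 253 with purmorphamine. The male pairs of *Alox5* were lower in the mutant and the female pairs higher, so that the log2 differences of −0.04 ± 0.34 and −0.10 ± 0.34 had no direction beyond their error. *Chat* was dim: it read 15 in all 4 control pools, of which 1 was flagged above background, and 35.2, 20.1, 31.2 and 15 in the mutant pools, which were all flagged. With purmorphamine, where 0 of 2 control pools were above background, the mutant level was at least 1.46-fold higher. The log2 differences of the pairs were 0.76 (male) and 0.34 (female).

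Above background in all 8 channels were thus *Trpm5*, *Pou2f3*, *Avil*, *Ptgs1*, *Alox5*, the brighter *Plcb2* probe and 3 of 4 *Dclk1* probes. *Gnat3*, *Gng13* and *Chat* were above background in all 4 mutant channels and in 1 of 4 control channels each. The genes also differed in how closely their patterns ran together. Over the 8 channels, which share pools, arrays and a common normalisation, the Pearson's r between *Gnat3* and *Avil* was 0.99, that between *Gnat3* and *Gng13* 0.98 and that between *Gng13* and *Pou2f3* 0.99, while *Alox5* and *Trpm5* had −0.50. Genes chosen for higher mutant levels share that step between genotypes. A high r among them was therefore partly set by the choice.

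Purmorphamine was then compared with DMSO on the same array, and limma was applied to the within-array log2 ratio, a comparison that did not choose the genes but shares its DMSO pools with the one that did. A choice of genes for high mutant and low control DMSO pools can by itself favour lower values with purmorphamine in the mutant and higher ones in control. The p-values of the 10 genes for purmorphamine carry that choice and are given as a description. *Gnat3*, *Gng13* and *Chat* passed the probe filter through mutant pools alone. In *Pparg-cKO* ureters 2 of the 10 genes fell and 0 rose, against 2.81% of the 20231 genes that fell and 1.85% that rose. *Gnat3* fell by 1.10 ± 0.11 (SE) on the log2 scale (limma, adjusted p = 0.0185), and the arrays gave −1.10 (male) and −1.09 (female). *Avil* fell by 0.86 ± 0.15 (adjusted p = 0.0496), with −0.75 and −0.98, a call at the edge of the threshold that was lost when either *Pparg-cKO* array was left out (adjusted p = 0.0946 and 0.361) and under other normalisations. The call of *Gnat3* was lost on the processed signals of the scanner software without further normalisation (limma, adjusted p = 0.104). It was also lost without the female *Pparg-cKO* array, where the log2 change was −1.10.

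The other 8 genes did not pass in *Pparg-cKO* ureters. *Gng13* gave −0.52 ± 0.11 (limma, adjusted p = 0.0803) and *Plcb2* −0.58 ± 0.11 (adjusted p = 0.0580), both below 0 on both arrays. *Trpm5* gave 0.44 ± 0.11 (adjusted p = 0.110) and was the only one of the 10 above 0. *Pou2f3*, *Dclk1*, *Ptgs1*, *Alox5* and *Chat* lay between −0.39 and −0.18, with adjusted p from 0.219 to 0.489. The median of the 10 was −0.35, beside −0.0024 over all genes tested.

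In control ureters *Trpm5* rose, by 1.07 ± 0.11 on the log2 scale (limma, adjusted p = 0.0388), and the arrays gave 1.11 (male) and 1.02 (female). It was 1 of 10 genes that rose, and 0 fell, against 0.282% and 0.919% of all genes tested. The call did not hold when either control array was left out (adjusted p = 0.132 and 0.108). By the fold rule, *Trpm5* was again the gene higher with purmorphamine in control (1.35% of all gene names were), and *Gnat3* and *Avil* were lower in *Pparg-cKO* (2.31% were). *Avil* gave −0.47 ± 0.15 (adjusted p = 0.197) and *Plcb2* −0.38 ± 0.11 (adjusted p = 0.167) in control. *Gnat3*, *Gng13* and *Chat* gave −0.14, 0.11 and −0.08 from control pools at the floor, and the other 4 genes lay between −0.37 and 0.18 with adjusted p from 0.316 to 0.861.

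**Figure D4:**
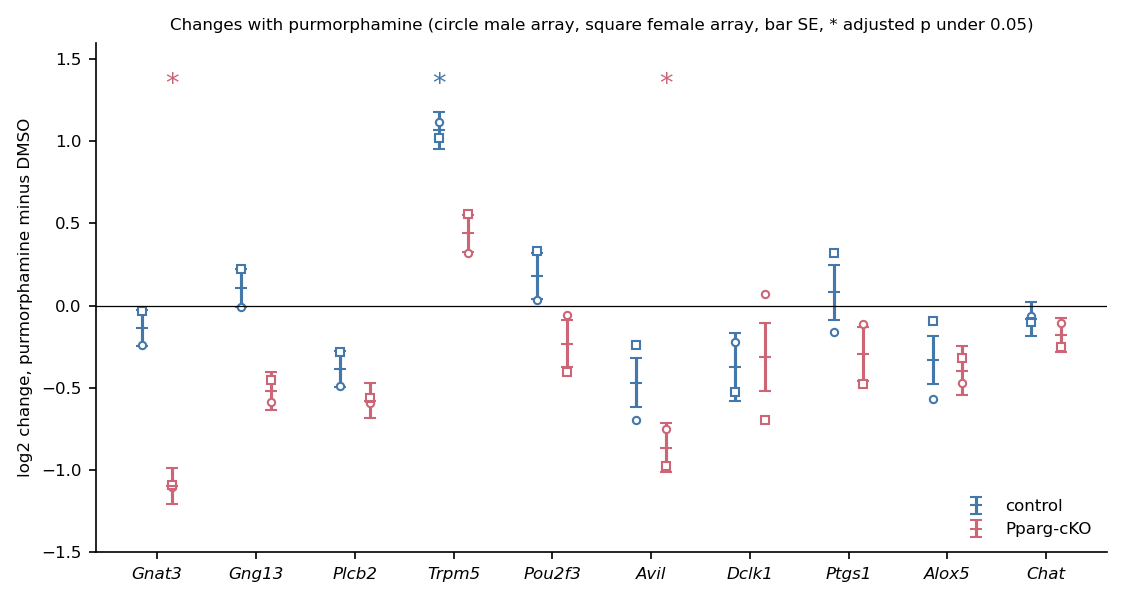
Change with purmorphamine (log2 ratio to DMSO within an array) of the brightest probe of each gene in control and *Pparg-cKO* ureters. Dashes with bars are the fitted change and its SE, circles the male and squares the female array, and asterisks mark an adjusted p under 0.05. *Trpm5* lies above 0 on all 4 arrays, whereas *Gnat3*, *Plcb2*, *Avil*, *Alox5* and *Chat* lie below 0 on all 4.

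Whether the change with purmorphamine differed between the genotypes was tested as the difference of the 2 coefficients. It passed for 0 of the 10 genes by limma and for 0% of all genes, higher or lower. Without adjustment p was under 0.05 for 3 of the 10, for which the change in *Pparg-cKO* minus that in control was −0.96 ± 0.15 (*Gnat3*), −0.63 ± 0.16 (*Gng13*) and −0.63 ± 0.16 (*Trpm5*), with limma adjusted p of 0.983, 1.00 and 1.00. Over all 20231 genes tested, the unadjusted limma p was under 0.05 for 320 higher and 351 lower. *Gnat3* and *Gng13* were at the floor in control, where no decrease could be read. The larger change of *Trpm5* in control than in the mutant was thus not shown to be a difference.

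Genes that act with those described were counted from lists. Of 16 taste transduction partners on the array, 14 were tested, and 5 were higher in *Pparg-cKO* with DMSO and 0 lower by limma, against 1.91% and 1.77% of all genes. *Gnb3*, the gene of the β subunit that completes the gustducin heterotrimer, read 15 in both control pools and 277 and 214 in the mutant pools with DMSO, a log2 difference of 2.83 (limma, adjusted p = 0.00264). *Rgs13*, an inhibitor of G protein signalling, went from 157 and 95.3 to 1423 and 745 (2.77, adjusted p = 0.00964). *Gprc5c*, an orphan receptor of taste tissue, differed by 1.37 (adjusted p = 0.00264), and *Itpr2*, a calcium release channel, by 0.78 (adjusted p = 0.0295). The channel genes *Itpr3* and *Trpm4* gave 0.10 and 0.03. With purmorphamine 4 of the 14 were higher and 0 lower, against 1.15% and 1.74% of all genes, and *Gnb3* and *Rgs13* gave 2.00 and 2.62 (limma, adjusted p = 0.0123 and 0.0168). *Gnb3* also fell with purmorphamine in *Pparg-cKO* ureters, by 0.82 (adjusted p = 0.0458), in the direction of *Gnat3*. Without either control array, 0 of the 14 were called under DMSO or purmorphamine, and with purmorphamine 2 were called with the replicate block and 2 on processed signals.

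Receptors were mostly dark. Of 35 bitter taste receptor genes (Tas2r names), 30 were above background in no channel and 4 were tested. *Tas2r126* was above background in the 4 mutant channels only, at 46.8 and 25.9 in the DMSO pools, and exceeded control at least 1.91-fold (limma, adjusted p = 0.0252). It passed the filter through these channels alone, which favoured a call of higher. *Tas1r2*, of the sweet receptor, was not above background in any channel, and *Tas1r1* and *Tas1r3* gave log2 differences of 0.44 and −0.04 with DMSO (adjusted p = 0.0932 and 0.904). *Sucnr1*, a succinate receptor of intestinal tuft cells, gave −0.29 (adjusted p = 0.747).

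Among transcription factors and cofactors of tuft cells other than *Pou2f3*, 8 of 9 were tested and 4 were higher in *Pparg-cKO* with DMSO, against 1.91% of all genes, and 3 with purmorphamine, against 1.15%, with 0 lower under either. With an array left out, 1 to 2 of them were called in each comparison, and 1810046K07Rik, *Gfi1b* and *Hmx2* passed the filter through mutant channels alone. The gene named 1810046K07Rik, now *Pou2af2*, encodes a coactivator of POU2F3. It read 15 in all control pools and 542 and 389 in mutant pools with DMSO and 297 and 201 with purmorphamine, which was at least 14.5-fold and 8.50-fold higher than control pools without a signal above background (limma, adjusted p = 6.97e-04 and 0.00129). Gm684, now *Pou2af3*, a related cofactor, went from 165 and 139 to 690 and 658 with DMSO, and from 119 and 116 to 856 and 720 with purmorphamine (log2 differences of 1.94 and 2.46, adjusted p = 0.00117 and 0.00124). *Gfi1b* was at least 1.67-fold higher with DMSO (adjusted p = 0.00616), at 35.0 and 27.5 in the mutant pools. *Hmx2* passed with an adjusted p of 0.0308 but stood at the floor in all 8 channels. The filter favoured a call of higher for 1810046K07Rik, *Gfi1b* and *Hmx2*, so their p-values and their part in the counts are a description. With purmorphamine in *Pparg-cKO* ureters 1810046K07Rik and *Spib* fell, by 0.87 and 0.91 (adjusted p = 0.0235 and 0.0349).

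Of 39 other markers of tuft cells, 38 were tested, and 13 were higher and 0 lower in *Pparg-cKO* with DMSO, against 1.91% and 1.77% of all genes, and 5 and 0 with purmorphamine, against 1.15% and 1.74%. The largest differences among those called with DMSO were *Cwh43*, from 62.5 and 34.5 to 314 and 434 (2.39, limma, adjusted p = 0.00483), *Bmx*, a kinase gene, from 41.2 and 37.6 to 272 and 210 (1.99, adjusted p = 0.00171), *Sh2d7*, from 25.0 and 29.5 to 158 and 120 (1.58, adjusted p = 0.0109) and *Nebl*, from 23.8 and 46.5 to 146 and 151 (1.51, adjusted p = 0.0131). Among the 13, *Ly6g6f* passed the filter through mutant channels alone, at 37.3 and 18.1 in the mutant DMSO pools, which favoured a call of higher. The remaining 25 did not pass, and over the 38 the median was 0.15, with 28 values above 0 and 10 below. *Il25*, the cytokine gene of intestinal tuft cells, was below 25 in every channel, with a difference of −0.23 (adjusted p = 0.345). The 13 calls became 3 without the male and 0 without the female control array, and 4 and 6 without the male and the female *Pparg-cKO* array, and were 4 with the replicate block. The 5 calls with purmorphamine became 0 with the replicate block and 0 to 2 with an array left out. With purmorphamine 6 of the 38 fell in *Pparg-cKO* and 3 in control, against 2.81% and 0.919% of all genes. Among them were *Lrmp*, *Vav1* and *Ptpn18* in both. Between genotypes with DMSO, *Lrmp* was higher in the mutant (1.19, limma, adjusted p = 0.0306). *Vav1* and *Ptpn18* were not called there (0.09 and 0.43, adjusted p = 0.919 and 0.447).

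**Figure D5:**
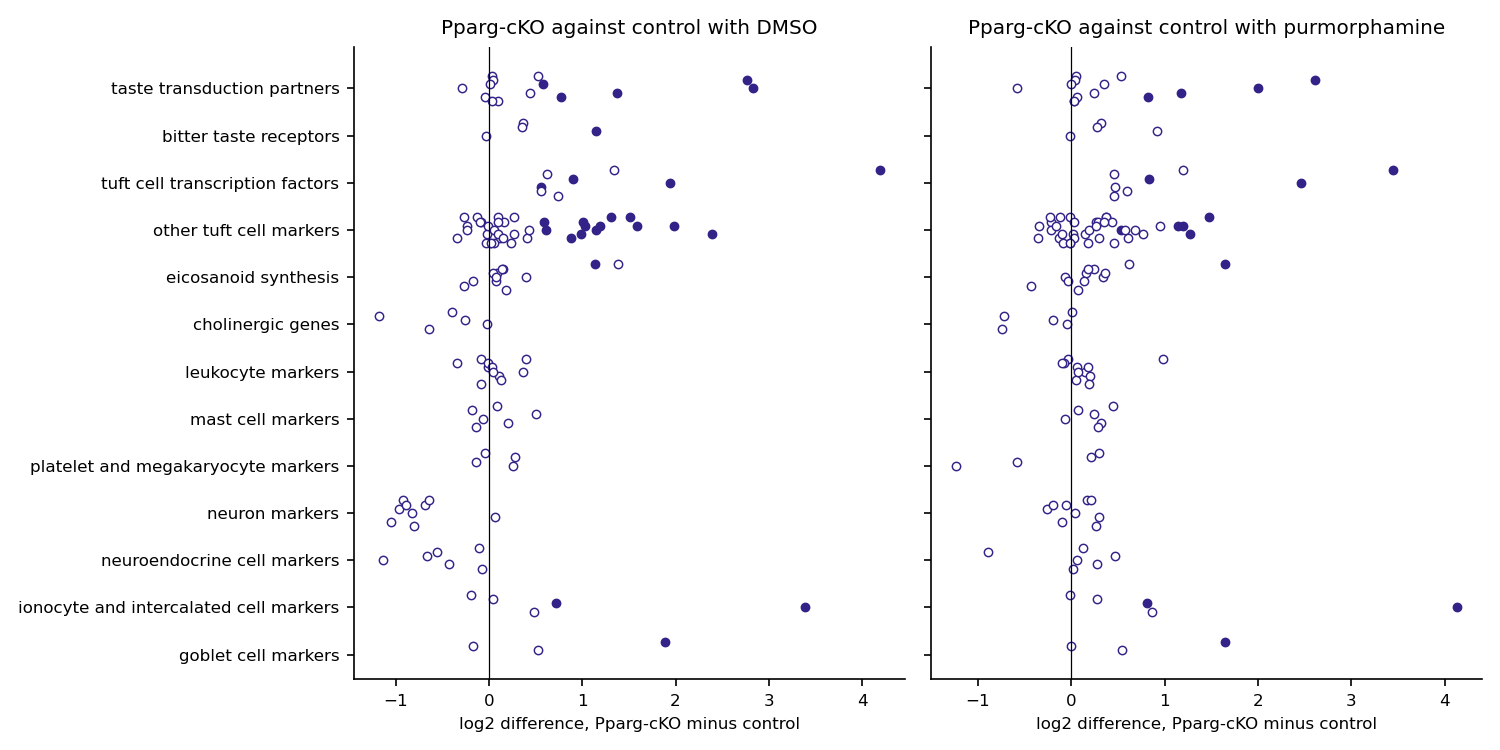
Log2 difference between *Pparg-cKO* and control for each tested gene of 13 lists, with DMSO and with purmorphamine. Each point is a gene, filled where the limma adjusted p was under 0.05, and the vertical spread within a list has no meaning. Filled points lie to the right of 0 in both comparisons, and the cholinergic, leukocyte, mast cell, platelet, neuron and neuroendocrine lists hold none.

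The lists around *Ptgs1*, *Alox5* and *Chat* gave another picture. Of 12 tested genes of eicosanoid synthesis, *Alox12*, the gene of 12-lipoxygenase, was higher in *Pparg-cKO* under both treatments (1.14 and 1.65, limma, adjusted p = 0.0361 and 0.0161) and 0 were lower. Over all genes, 1.91% were higher in the mutant with DMSO and 1.15% with purmorphamine. With purmorphamine 3 of the 12 fell in control and 4 in *Pparg-cKO*, against 0.919% and 2.81% of all genes. *Ptgs2*, the gene of inducible cyclooxygenase, went from 1393 and 852 to 291 and 111 in control and from 1370 and 1026 to 222 and 136 in *Pparg-cKO* (−2.47 and −2.60, adjusted p = 0.0213 and 0.0127). *Alox5ap* and *Ltc4s*, of leukotriene synthesis, fell in both genotypes by between 0.78 and 1.00, and *Ptgds* fell by 1.62 in *Pparg-cKO* (adjusted p = 0.0350). Of 5 cholinergic genes none passed in any comparison, and *Bche* and *Slc5a7* gave −1.18 and −0.65 between genotypes with DMSO (adjusted p = 0.336 and 0.329).

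Several of the 10 genes are also used by other cells of the explants, whose markers moved as follows, and their part in the results was not tested. All 11 leukocyte markers were above background in all 8 channels, and 0 were called between genotypes under either treatment. Their summed intensity was 90303 to 131099 in control and 99373 to 115970 in *Pparg-cKO* pools with DMSO, and 61625 to 89185 and 73153 to 76109 with purmorphamine. With purmorphamine all 11 gave a log2 change below 0 in both genotypes, with medians of −0.62 in control and −0.56 in *Pparg-cKO*. By limma 1 of them fell in control (*Cd14*) and 2 in *Pparg-cKO* (*Adgre1* and *Coro1a*), against 0.919% and 2.81% of all genes. *Plcb2* and *Alox5*, which leukocytes express, were below 0 in the same comparisons. So were *Gnat3*, *Avil*, *Dclk1* and *Chat*, and in all 9 of the 10 genes were below 0 in *Pparg-cKO* and 6 in control. None of 6 mast cell markers was called between genotypes, *Hdc* fell with purmorphamine in both (−1.12 and −0.86, limma, adjusted p = 0.0473 and 0.0455), and the summed intensity ranged from 10400 to 16856 in control and 10913 to 15374 in *Pparg-cKO* pools with DMSO, and from 10566 to 14533 and 10073 to 21339 with purmorphamine. Of 5 platelet and megakaryocyte markers, which share *Ptgs1*, *Gp9* was above background in no channel and 0 were called between genotypes, while *Pf4* and *Ppbp* fell with purmorphamine in *Pparg-cKO* (−1.80 and −2.85, adjusted p = 0.0216 and 0.0482). The sum of the 5 ranged from 12753 to 33126 in control and 17533 to 18714 in *Pparg-cKO* pools with DMSO, and from 6242 to 10203 and 4386 to 5960 with purmorphamine. *Pf4* made up most of it in every pool, at 30291 and 12337 in control pools with DMSO.

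Neurons use *Avil*, *Dclk1* and *Chat*. All 9 neuron markers were above background in all channels, 8 of them were below 0 between genotypes with DMSO with a median of −0.82, and 0 passed the test, *Stmn2* having the largest value (−1.05, limma, adjusted p = 0.503). Their summed intensity was 10197 to 16703 in control and 7113 to 7622 in *Pparg-cKO* pools with DMSO, and 15997 to 20159 and 13681 to 21629 with purmorphamine. In *Pparg-cKO* ureters with purmorphamine *Uchl1* rose, by 1.54 (adjusted p = 0.0173). Of 6 neuroendocrine markers 0 were called in any comparison, and the largest value between genotypes was −1.14 for *Chgb* (adjusted p = 0.322). Their sum was 718 to 1371 and 531 to 708 with DMSO and 830 to 996 and 813 to 1308 with purmorphamine, in control and *Pparg-cKO* respectively.

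Of the markers of other epithelial cells, 2 of 5 tested ionocyte markers and 1 of 3 tested goblet cell markers were higher in *Pparg-cKO* under both treatments. Over all genes, 1.91% were higher with DMSO and 1.15% with purmorphamine. *Foxi1*, the factor gene of ionocytes and intercalated cells, read 15 in all control pools and 437 and 353 in *Pparg-cKO* pools with DMSO and 586 and 683 with purmorphamine (log2 differences of 3.38 and 4.13, limma, adjusted p = 6.97e-04 and 2.94e-04). *Atp6v1b1*, a proton pump gene of these cells, was at least 1.35-fold and 1.52-fold higher (adjusted p = 0.0129 and 0.0143). It passed the filter through mutant channels alone, which favoured a call of higher. Of the other 4 markers *Cftr* was above background in no channel and *Ascl3*, *Atp6v0d2* and *Slc4a9* were not called, and the sum of all 6 was 4610 to 7264 in control and 5009 to 7758 in *Pparg-cKO* pools with DMSO, and 3495 to 4399 and 5315 to 5391 with purmorphamine. *Atp6v0d2* made up most of this sum in every pool, at 7108 and 4491 in control pools with DMSO, so the sum says little of *Foxi1*. Of 5 goblet cell markers *Agr2* was higher, from 128 and 114 to 544 and 522 with DMSO and from 66.6 and 87.5 to 328 and 299 with purmorphamine (1.88 and 1.64, adjusted p = 0.00147 and 0.00394). *Muc2*, the defining goblet cell mucin gene, was at the floor of 15 in all 8 channels although 6 were flagged as above background, *Tff3* and *Muc5b* were above background in 1 channel each, *Spdef* gave 0.52 with DMSO (adjusted p = 0.0897), and the sum was 197 to 227 and 644 to 673 with DMSO and 150 to 164 and 406 to 442 with purmorphamine.

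The genes whose pattern over the 8 channels was most like that of the 10 were looked for among the other 20221 genes tested. Closest to the mean of their standardised log2 levels were Gm15706 (Pearson's r = 0.99), *Cldn3*, a tight junction gene (0.99), *Fam149a* (0.99), *Ankk1* (0.98) and *Habp2* (0.98). For single genes, *Ovol3*, *Sult1c2* and *Slurp1* were closest to *Gnat3* (r of 1.00 each). *Prm1*, 1810046K07Rik and *Npnt* were closest to *Gng13* (1.00 each), and *Mb*, *Serpinb11* and *Zbtb8b* to *Pou2f3* (1.00, 0.99 and 0.99). *Haglr*, 2210011C24Rik and *Hpn* followed *Avil* (1.00, 1.00 and 0.99), and *Mmp7*, Gm2022 and BB287469 followed *Chat* (0.98 each). *Trpm5* was followed by Gm38556, 9230116L04Rik and *Galnt10* (0.98 each). *P2ry13*, *Sh2d1b1* and *Pde10a* were closest to *Plcb2* (0.99, 0.98 and 0.98), *Hoxd9*, *Stc2* and *Kif26b* to *Ptgs1* (0.97, 0.94 and 0.93), *Mcpt-ps1*, *Igsf8* and *Ankrd37* to *Alox5* (0.96 each), and *Zfp52*, *Cldn2* and *Wwp2* to the brightest *Dclk1* probe (0.98, 0.96 and 0.96). With 8 channels in 4 groups and so many candidates, such values describe these pools only.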

How the data were processed

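Total RNA of the 8 pools was hybridised to 4 Agilent arrays with the dyes exchanged between the male and the female pair. Per the file headers, the mean, background and processed intensity of each spot were read by Feature Extraction (12.2.0.7; 10.7.3.1 per the labels), which subtracted background and removed dye bias in the processed intensity only. The deposited log10 ratio is red over green, and the deposited score of the value table is the fold change between the treatments, signed for purmorphamine, whose normalization is not given in the sources used here (median 1.0 in every column). Its log2 had an r of 0.995 to 0.998 with the ratios computed here.

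Spots were averaged geometrically without outlier spots, and channels were scaled to a 75th percentile of 1500 with a floor of 15 for the fold rule (intensity 100, 1.5-fold, both pairs). For tests, limma (3.58.1, R 4.3.3) was applied after normexp correction (offset 50) and loess, with Benjamini-Hochberg adjustment over 27066 probes well above background (more than 0.5 of the 4 spots) in both pools of at least 1 group. Purmorphamine was tested on within-array ratios and genotypes on single channels (lmscFit) with Aquantile normalization (intraspot correlation 0.040 over 4000 probes). A level below background gives "at least" folds, against the lowest signal well above background or, where higher, the probe's own. The scripts were tested on simulated data. Because the labels do not describe separate cultures beyond the pools, p-values measure the spread between pools, and the 2 pools a group limit the precision. The genes and lists were chosen with earlier results of these data known. Named are the 10 genes, *Pparg* and *Ptch1*, up to 4 genes with the largest change among those called of a list (otherwise up to 2), dark defining markers, and the genes most alike in pattern. *Upk3a*, *Acta2*, *Spdef*, receptors, *Itpr3*, *Trpm4*, *Il25* and *Ly6g6f* were named outside this rule after their values were seen. Alternatives were other thresholds, normalizations, filters, a replicate block and leaving out arrays. All 4 arrays were on 1 slide and 1 scan, and 0 spots were saturated.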

Additional observations from a re-analysis of the deposited data

How the results depend on the processing

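No member changed direction between genotypes where the fold rule had called it, under the scalings, the block or any array left out. Some of the genes were chosen for higher mutant levels in these same files, so a kept direction or count was partly set by that choice. With DMSO the count of 4 genes by the fold rule stayed between 3 and 6 in all settings. With purmorphamine the count of 1 became 4 at an intensity threshold of 50, 3 on normexp, loess and Aquantile levels, 2 with crossed pairs (added after seeing the data) and 1 to 4 with a replicate pair left out. For purmorphamine in *Pparg-cKO* the 2 calls became 0 on processed signals, 1 with an offset of 16, with no filter, with probes above background in all 8 channels and with the replicate block, 6 without adjustment, and 0 to 2 with an array left out. In control the 1 call became 0 on processed signals and with no filter, 3 without adjustment, and 0 to 1 with an array left out. The difference between genotypes gave 2 genes by the fold rule and 3 without adjustment, but 0 in all other fits, arrays left out included. Over all 20231 genes, unadjusted limma p was under 0.05 for 1994 higher and 2501 lower in *Pparg-cKO*. The counts were 1978 and 1990 in control, and 320 and 351 for the difference. On processed signals 556 of all genes were called in *Pparg-cKO* and 74 in control, and with no filter 289 and 0. The offset of 16, no filter and the block lost the call of *Avil* in *Pparg-cKO*. With probes above background in all 8 channels, *Gnat3* was not tested. When an array was left out, small values turned sign. For purmorphamine these were *Dclk1* in *Pparg-cKO* (−0.6932 to 0.0729, the latter without the female *Pparg-cKO* array), *Gng13* in control (−0.0089 to 0.2224) and *Ptgs1* in control (−0.1595 to 0.3233), where the lower values are those without the female control array. Between genotypes they were *Alox5* with DMSO (−0.5275 to 0.4591, and 0.05 on processed signals) and with purmorphamine (−0.3543 to 0.1604), *Ptgs1* with purmorphamine (−0.2269 to 0.1488) and *Dclk1* with purmorphamine (−0.0022 to 0.5422). Where an array left out leaves a single one in an arm, that array was assumed to vary like the others. For the lists (alternatives chosen after seeing the data), the taste partners called with DMSO went from 5 to 3 with the replicate block and 0 to 3 with an array left out, and with purmorphamine from 4 to 2 with processed signals, 2 with the block and 0 to 3 with an array left out. The transcription factors went from 4 to 2 with processed signals and 1 to 2 with an array left out with DMSO, and from 3 to 1 to 2 with purmorphamine. The other tuft cell markers went from 13 to 6 with processed signals, 4 with the block and 0 to 6 with an array left out with DMSO, and from 5 to 1, 0 and 0 to 2 with purmorphamine. Same-numbered arrays had deviations of their ratios with r = 0.16 over 27066 probes, and same-numbered pools had deviations of their levels with r = −0.17 with DMSO and 0.48 with purmorphamine, and replicate numbers share sex and dye but not animals. The cause of these shifts was not tested. Signals near the floor limit what can be read of *Gnat3*, *Gng13* and *Chat* in control.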
